A study of Mus musculus with 8 samples.

Results

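Replication histones are the proteins around which new DNA is wrapped when a cell copies its genome. Their genes were represented by 72 of the 56605 probes on a mouse expression array, chosen because the gene name in the scanner files is that of a clustered H2A, H2B, H3 or H4 gene or of an H1 gene. The 72 probes name 56 genes, of which 55 had a probe bright enough to be tested. The name rule also takes in 5 linker histones of other kinds: the replacement histones H1f0 and H1f10, the testis histones H1f6 and H1f7, and the oocyte histone H1f8. Counts without them are given for all genes together, for a split of the probes by RefSeq accession and for promoter motifs. Other counts include them.

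The arrays measured RNA of CD11b+ cells, the gate that takes in microglia and other myeloid cells, sorted with magnetic beads from the brains of male C57BL/6N mice at 7 days of age. The mice had been given saline or the bacterial product lipopolysaccharide (LPS) 24 h before, and no transgene or other treatment is named for either group. Each group held 4 tubes, and each tube pooled the cells of 2 brains treated alike, so the spread between arrays is a spread between pools. The labels give no dose or route. Unless another unit is named, values are log2 signals relative to the 75th percentile of their array. A change is LPS minus saline, tested with limma across all genes, with Benjamini-Hochberg adjusted p under 0.05 as the threshold. In bulk RNA of this kind, a different share of cells of a type and a different amount of RNA per cell cannot be told apart.

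A nucleosome holds DNA around an octamer of the core histones H2A, H2B, H3 and H4, and H1 linker histones bind the DNA between nucleosomes. The replication-dependent genes lie mainly in clusters, of which the larger is on mouse chromosome 13 and another on chromosome 3, and they are transcribed strongly when a cell enters S phase. Their mRNAs do not end in a poly(A) tail but in a stem-loop that the protein SLBP binds. Labelling for these arrays began from a low-input kit whose primer anneals to poly(A). How this affects the capture of stem-loop mRNAs was not tested.

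After LPS most of the clustered histone genes were higher. Of the 55 genes tested, 38 rose and 4 fell, and 13 did not pass the test. Over all 22514 genes tested, 27.8% rose and 21.5% fell. The median change of the 55 histone genes was 0.49, from -0.70 to 1.05, while that of all genes was 0.02. Each LPS array lay above each saline array in 38 of the 55 genes, the same 38 that rose, and in 25.8% of all genes. The opposite order was seen in 3 of the histone genes and in 18.9% of all genes. Without the 5 other linker histones, 37 of 51 genes rose and 3 fell.

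The increases were of moderate size in all 5 classes. In H2A, 13 of 16 genes rose and 1 fell, with a median change of 0.47. In H2B, 6 of 12 rose and none fell, with a median of 0.32, although 1 or 2 fell under some other settings. H2bc4, at -0.15 ± 0.09 and not past the test, was lower with the 75th percentile taken over probes bright on every array (bright probes, -0.31, adjusted p = 0.012), with quantile normalization (-0.48, adjusted p = 0.0038) and with normexp (-0.18, adjusted p = 0.049). H2bc4 was chosen after its values were seen. In H3, 7 of 9 rose and 1 fell, with a median of 0.66. In H4, 7 of 9 rose and none fell, with a median of 0.69, although here too 1 or 2 fell under some other settings. Among the H1 genes 9 of 10 were tested, and 5 rose and 2 fell, with H1f10 among the former and H1f8 among the latter. By position, 31 of 42 genes with a probe on chromosome 13 rose and 1 fell, and 6 of 10 on chromosome 3 rose and 2 fell.

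**Figure D1:**
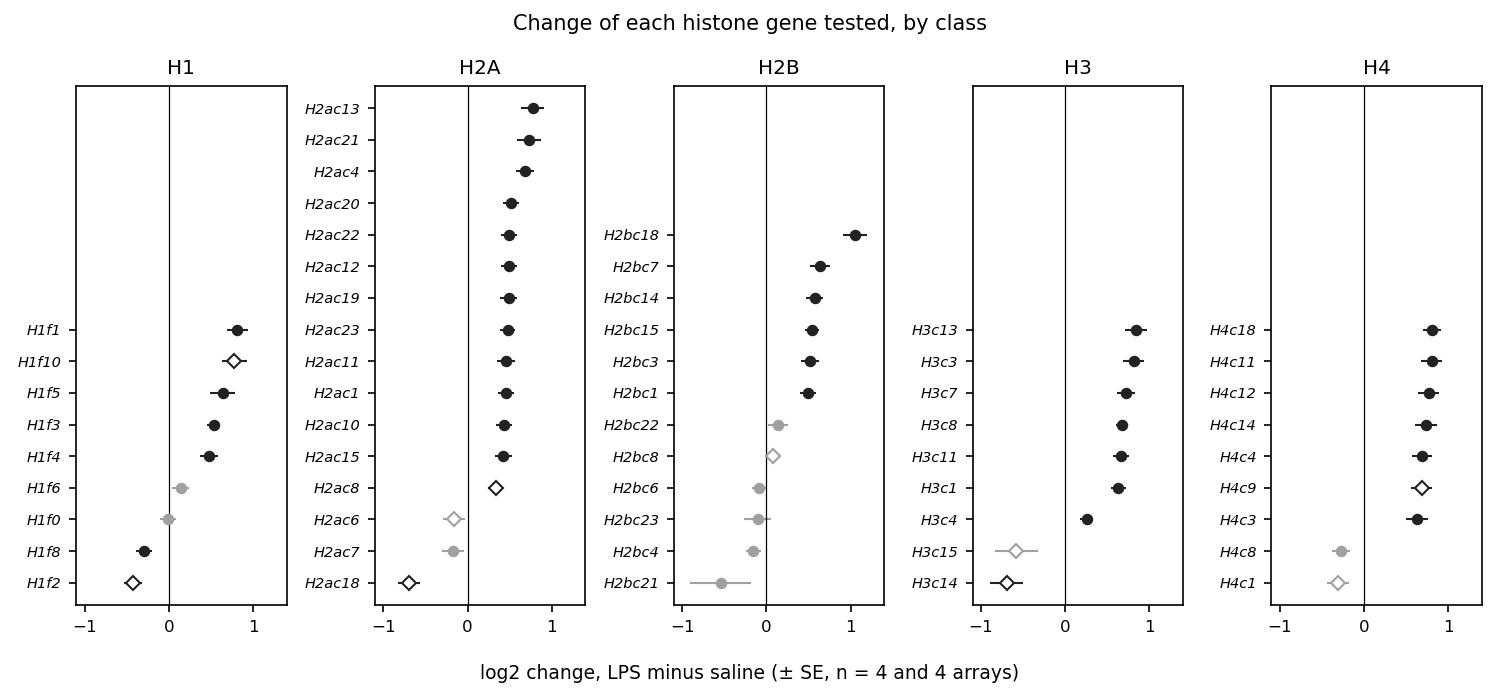
Log2 change (LPS minus saline, x axis) of the 55 tested histone genes, one panel a class, with bars for the standard error over 4 and 4 arrays. Black symbols passed the test and grey ones did not, and open diamonds mark genes whose representing probe lists no RefSeq accession. Most genes sit to the right of 0, with a few genes of each class at or to the left of it.

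H2bc18 encodes a core H2B histone of the chromosome 3 cluster and had the largest change of the histone genes. Its log2 signal was 2.87, 2.92, 2.53 and 2.63 on the saline arrays and 4.06, 3.89, 3.47 and 3.74 on the LPS arrays. Every LPS array lay above every saline array. The change was 1.05 ± 0.14 (SE, n = 4 and 4 arrays, limma adjusted p = 0.0012), which is 2.08-fold. No other histone gene rose by as much as 2-fold, and 3.58% of all genes rose that far. Its probe lies at chr3:96074056-96074115 of the mm9 build, per the scanner files, and reaches over the stem-loop at the end of the mRNA.

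The other H2B genes named here moved less. H2bc7 rose by 0.64 ± 0.12 (SE, n = 4 and 4, limma adjusted p = 0.0033), from 2.60 to 2.90 over the saline arrays to 3.15 to 3.53 over the LPS arrays. H2bc14 rose by 0.57 ± 0.10. H2bc3, taken as the H2B gene of highest signal, rose by 0.52 ± 0.10. All 3 had groups that did not overlap. H2bc21 stood apart. It read 1.74, 1.21, 1.98 and 1.72 in the saline arrays and 0.69, 0.90, 2.24 and 0.63 in the LPS arrays. LPS replicate 3 was thus above every saline array while the other LPS arrays were below them all. Its change was -0.54 ± 0.36 (SE, n = 4 and 4, limma adjusted p = 0.23). Without LPS replicate 3 it was -0.92, with a limma adjusted p of 0.0044. H2bc21 was singled out after its values were seen.

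In the H3 class, H3c13 gave 3.68, 3.63, 3.32 and 3.39 after saline and 4.56, 4.46, 4.10 and 4.25 after LPS, a change of 0.84 ± 0.13 (SE, n = 4 and 4, limma adjusted p = 0.0018). H3c3 rose by 0.82 ± 0.12 and H3c7 by 0.72 ± 0.11. H3c4, the H3 gene of highest signal, rose by 0.25 ± 0.08 (SE, n = 4 and 4, limma adjusted p = 0.027), and read -0.11 under quantile normalization. Its adjusted p was 0.064 to 0.073 without LPS replicate 1 or 2 or without saline replicate 3 or 4, with changes of 0.21 to 0.25. H3c14 moved the other way, by a probe that lists no RefSeq accession. It read -1.02, -0.98, -0.85 and -1.0 after saline and -2.06, -1.88, -1.07 and -1.62 after LPS. The groups did not overlap, and the change was -0.70 ± 0.20 (SE, n = 4 and 4, limma adjusted p = 0.020). Without LPS replicate 2 the change was -0.62 (adjusted p = 0.055) and without saline replicate 3 it was -0.66 (adjusted p = 0.052). Its neighbour H3c15 gave -1.18, -1.08, -0.05 and -1.29 after LPS, where LPS replicate 3 was again the high array, against -0.43 to -0.22 after saline. The H3c15 change was -0.58 ± 0.25 (SE, n = 4 and 4, limma adjusted p = 0.089), and -0.86 without LPS replicate 3, with a limma adjusted p of 0.00025. H3c15 too was chosen after its values were seen, and its probes also list no RefSeq accession.

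H4 genes encode the core histone whose amino acid sequence varies least between genes. H4c18 read 0.14, 0.08, -0.16 and -0.23 after saline and 0.88, 0.81, 0.67 and 0.68 after LPS. Its change was 0.81 ± 0.11 (SE, n = 4 and 4, limma adjusted p = 0.0011). H4c11 rose by 0.80 ± 0.13 and H4c12 by 0.76 ± 0.13. H4c4, whose probe is spotted 10 times on the array, rose by 0.69 ± 0.12, from 7.65 to 7.99 over the saline arrays to 8.29 to 8.74 over the LPS arrays. No H4 gene fell past the threshold with the main settings. H4c8 and H4c1 did not pass it, at -0.27 ± 0.11 and -0.31 ± 0.13 (SE, n = 4 and 4).

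In the H2A class, H2ac13 rose by 0.77 ± 0.13 (SE, n = 4 and 4, limma adjusted p = 0.0027), H2ac21 by 0.73 ± 0.14 and H2ac4 by 0.68 ± 0.11. The mean of both H2ac13 probes read 0.29 (adjusted p = 0.060). The H2ac21 probe was dim, with an unscaled signal of 13.7 to 17.4 on saline and 21.4 to 25.6 on LPS arrays. Its change was 0.26 to 0.95 over the other settings. H2ac4 gave 7.24, 7.21, 6.94 and 7.02 after saline and 8.00, 7.82, 7.60 and 7.73 after LPS, with no overlap. H2ac12, the H2A gene of highest signal, rose by 0.49 ± 0.10. H2ac18 was the H2A gene that fell, again by a probe that lists no RefSeq accession. It read 4.32, 4.37, 4.20 and 4.39 after saline and 3.46, 3.43, 4.00 and 3.62 after LPS. The change was -0.70 ± 0.13 (SE, n = 4 and 4, limma adjusted p = 0.0037), and LPS replicate 3 again lay nearest to the saline arrays.

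**Figure D2:**
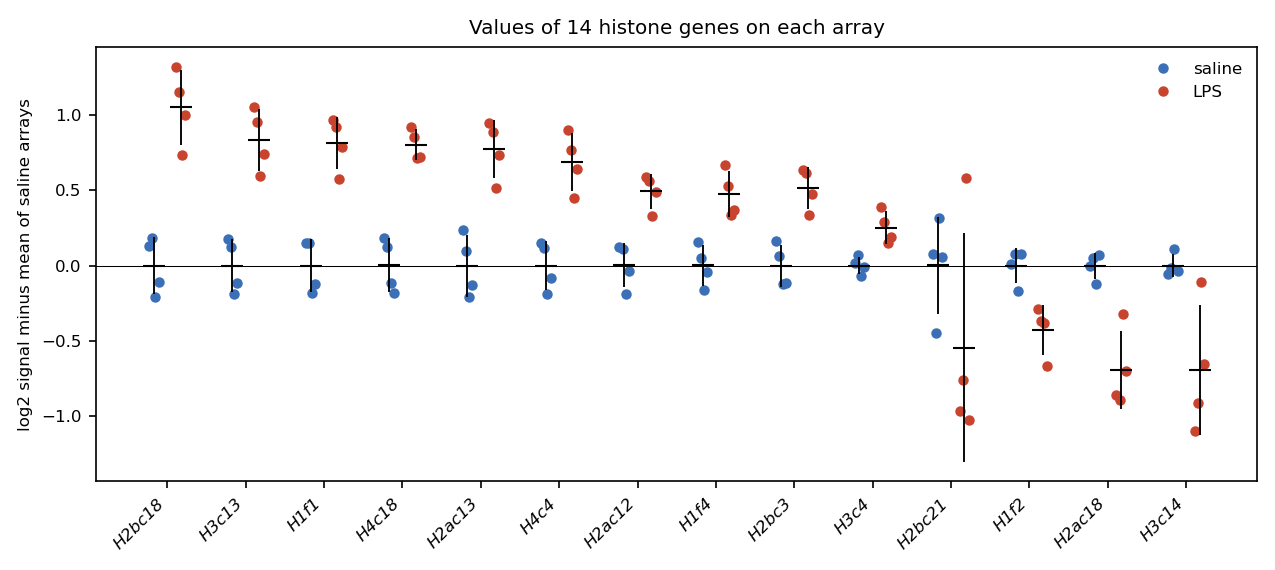
Log2 signal of 14 histone genes on each array, less the mean of the gene's saline arrays, with blue points for saline and red points for LPS and bars for the mean and SD of 4 arrays. The first 10 genes have every LPS array above every saline array, H2bc21 has a single LPS array far above the others, and H1f2, H2ac18 and H3c14 have every LPS array below every saline array.

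H1f1, a linker histone of the chromosome 13 cluster, read 1.37, 1.37, 1.04 and 1.10 after saline and 2.19, 2.14, 1.80 and 2.01 after LPS. It rose by 0.82 ± 0.12 (SE, n = 4 and 4, limma adjusted p = 0.0015). H1f5 rose by 0.64 ± 0.15 and H1f4, the H1 gene of highest signal, by 0.48 ± 0.11. H1f4 did not pass the test under quantile normalization, at 0.11. H1f0, which accumulates in cells that have left the cycle, read -1.47 to -1.35 after saline and -1.61 to -1.24 after LPS, a change of -0.01 ± 0.09 (SE, n = 4 and 4, limma adjusted p = 0.93). The testis histone H1f6 did not pass the test, at 0.14 ± 0.10, and the testis histone H1f7 had 1 saline array and no LPS array well above background. The oocyte histone H1f8 read -0.29 ± 0.09 (limma adjusted p = 0.032), which under normexp background correction was -0.0044 with an adjusted p of 0.95. Its call was also lost, at adjusted p of 0.054 to 0.091, when saline replicate 2, 3 or 4 or LPS replicate 1, 3 or 4 was left out, with changes of -0.30 to -0.26.

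Genes of these families are so alike that a probe for one can bind the RNA of another. Of the 53 member probes with a RefSeq accession, 21 list more than 1 accession. The H2A probes below are shown because they cover the same end of the coding sequence in 4 genes. Capitals mark the 10 positions of 60 at which the 4 are not all equal.
H2ac10: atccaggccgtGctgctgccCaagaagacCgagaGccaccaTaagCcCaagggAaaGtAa
H2ac15: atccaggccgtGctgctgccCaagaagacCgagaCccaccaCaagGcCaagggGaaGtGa
H2ac19: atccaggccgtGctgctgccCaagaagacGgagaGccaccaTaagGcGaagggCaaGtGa
H2ac22: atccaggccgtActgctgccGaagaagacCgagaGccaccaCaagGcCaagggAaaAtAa
These 4 probes belong to a set of 6, with those of H2ac11 and H2ac12, that are linked by at least 90% equal bases over an overlap of at least 40. The 6 genes changed by 0.42 to 0.50 and all rose. Probes of H4c11, H4c12 and H4c4 form a set of 3 with changes of 0.78 to 0.80. Those of H4c12 and H4c4 in this set are the dimmer probes, not the ones by which these genes were counted. Which of the genes in such a set gave the signal cannot be told apart. The scanner files also place the probes by which H2ac22, H2ac23 and H2ac13 were counted on overlapping stretches of mm9. These are chr13:21902669-21902728, chr13:21902695-21902754 and chr13:21902706-21902779, in that order. The number of separate genes that rose may thus be smaller than the count of names.

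Where a gene had several probes, they did not always tell the same story. At the probe level 70 of 72 probes were tested, and 43 rose and 7 fell. Over all 35494 probes tested 25.7% rose and 21.8% fell. Probes were then divided by the kind of transcript that they were designed to, a split made after the values were seen. Leaving aside the 5 other linker histones, 48 probes list a RefSeq accession, of which 40 rose and none fell, with a median change of 0.55. The other 17 probes list only other transcript records, and 2 of them rose and 5 fell, with a median of -0.31. Without LPS replicate 3 the probes that fell numbered 2 of the RefSeq group and 9 of the others. For all probes, 28.8% of those with a RefSeq accession rose and 20.5% fell, against 17.9% and 25.2% of those without one. The 17 histone probes without an accession were thus near the shares of all such probes, and 10 of them did not pass the test. The 48 with one were not near theirs. The 17 were dimmer than the 48, with a median mean signal of 63.7 against 2016. The part of signal in the difference was not tested.

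H1f2, H1f3 and H1f10 each had 2 probes called in opposite directions. The brighter probe of H1f2, at chr13:23832018-23832077 of mm9, lists no RefSeq accession. It read 4.74, 4.81, 4.56 and 4.81 after saline and 4.44, 4.36, 4.35 and 4.06 after LPS, and changed by -0.43 ± 0.10 (SE, n = 4 and 4, limma adjusted p = 0.011). The RefSeq probe of H1f2 at chr13:23831330-23831389, which reaches the start of the stem-loop, rose by 0.39 ± 0.13 (SE, limma adjusted p = 0.037). H1f2 therefore counted as a gene that fell only through its downstream probe. With arrays scaled to their median that probe read -0.21 (adjusted p = 0.31). For H1f3 the RefSeq probe at chr13:23647452-23647511 rose by 0.53 ± 0.08, and the probe at chr13:23649787-23649846 fell by 0.77 ± 0.15 on the log2 scale. For H1f10, a replacement linker histone, the brighter probe comes from a sequence tag and rose by 0.78 ± 0.15, while the RefSeq probe fell by 0.61 ± 0.17 on the log2 scale.

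The ratio of the brighter to the dimmer probe of a gene was then fitted over all 8201 genes with at least 2 kept probes, of which 16% passed the test. Of 15 histone genes with such a pair, 5 passed. With normexp background correction 9 passed, with the slide column as a block 8, with array signal as a covariate 3, and 3 to 7 when 1 array was left out, the 7 without LPS replicate 3 and the 3 without LPS replicate 1, 2 or 4 or saline replicate 4. H1f2, H1f3 and H1f10 passed under each of these settings. The log2 ratio changed by -0.82 ± 0.10 in H1f2 (SE, n = 4 and 4, limma adjusted p = 0.0031), by 1.31 ± 0.15 in H1f3 (adjusted p = 0.0025) and by 1.39 ± 0.22 in H1f10 (adjusted p = 0.0074). H2bc18 gave 0.97 ± 0.24 and H2bc3 gave -0.24 ± 0.06, both with an adjusted p of 0.033. Leaving out saline replicate 3 or 4 or LPS replicate 1, 2 or 4 gave H2bc18 an adjusted p of 0.060 to 0.082, with ratio changes of 0.79 to 1.06. H2bc3 lost its call, at 0.057 to 0.089, without any single array other than saline replicate 3, with ratio changes of -0.26 to -0.21. The ratio change of H2ac13 was 0.96 ± 0.29 (adjusted p = 0.058) and that of H2bc6 0.70 ± 0.21 (adjusted p = 0.058), and both passed with normexp, with the slide column as a block and without LPS replicate 3. So did that of H4c11, at 0.64 ± 0.25 (adjusted p = 0.13). H2ac18 gave -0.04 ± 0.23, and -0.75 with normexp (adjusted p = 0.0027). The second probe of H2bc18, which lists no RefSeq accession, changed by 0.08 ± 0.15 and did not pass the test. The second probe of H2bc6 fell by 0.79 ± 0.23 on the log2 scale while its RefSeq probe changed by -0.09 ± 0.08.

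**Figure D3:**
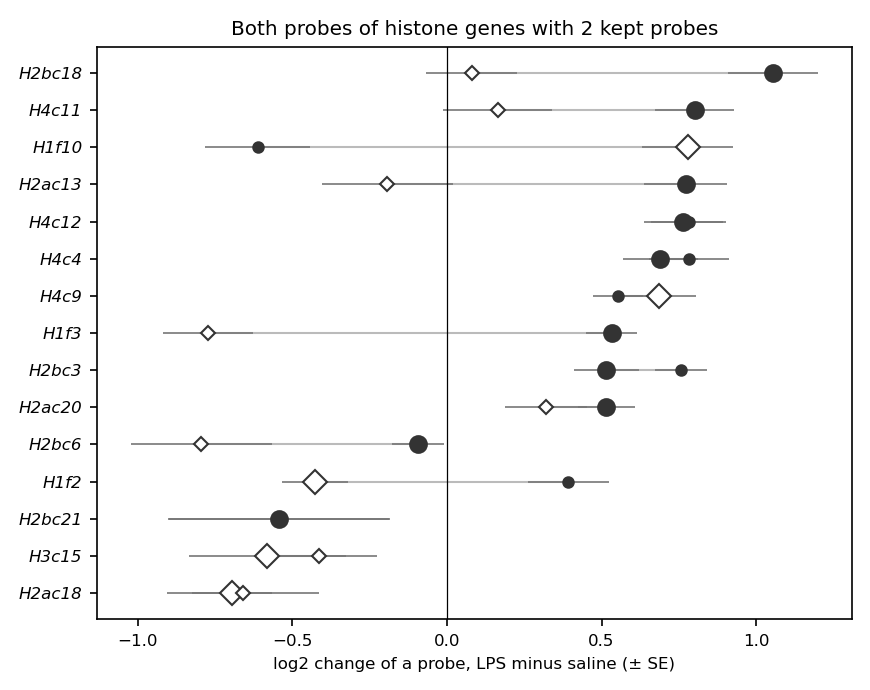
Log2 change (LPS minus saline, x axis) with its standard error for both probes of the 15 histone genes with 2 kept probes. Large symbols are the brighter probe, small ones the dimmer, filled circles list a RefSeq accession and open diamonds do not. The open diamond lies to the left of 0 and the circle to the right in H1f2, H1f3 and H2ac13, and the reverse holds in H1f10.

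Of the 72 probes, 12 hold part or all of the stem-loop near which replication-dependent histone mRNAs are cut. They are shown as the stretch around the stem-loop, in capitals, because they differ in how far they run past it.
H2bc18: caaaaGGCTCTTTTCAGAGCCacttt
H2bc7: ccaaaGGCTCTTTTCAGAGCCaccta
H3c1: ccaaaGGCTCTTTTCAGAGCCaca
H3c8: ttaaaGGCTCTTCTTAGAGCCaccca
H3c11: caaaaGGCTCTTTTCAGAGCCccctc
H4c18: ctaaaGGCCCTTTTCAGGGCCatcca
H2ac18: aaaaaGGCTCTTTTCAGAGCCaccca
H2ac8: CTTTTCAGAGCCattca
The first 6 end 3 to 6 bases past the stem-loop, whereas the H2ac18 probe runs on for 38 bases and that of H2ac8 for 48. Another 3 probes, of H1f2, H2ac4 and H2ac13, end within it. All 9 probes that end in the stem-loop or at most 10 bases past it rose, with a median change of 0.67. Of the 3 that run further, H2ac8 rose by 0.33 ± 0.09, H2ac18 fell by 0.70 ± 0.13 on the log2 scale, and H2ac20 changed by 0.32 ± 0.13 and did not pass the test. The bound of 10 bases was set after seeing the probes, and 25.7% of all probes rose. All 9 of the first kind list a RefSeq accession and the other 3 do not, so this split and the RefSeq split cannot be told apart. Bases well past the stem-loop, though not those right after it, are in the gene but not in an mRNA cut at the usual place.

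Promoters of the histone genes were read from RefSeq windows on GRCm38.p6, from 250 bases before to 50 after the start, with 51 of 56 genes matched. The box CCAAT, on either strand, was in 89.4% of the 47 windows of the clustered genes and in 37.4% of all 32851 windows. TATAAA was in 61.7% against 13.6%, and the octamer ATTTGCAT in 25.5% against 1.74%. The octamer was found in 6 of 16 H2A windows and 6 of 11 H2B windows, and in none of the H1, H3 and H4 windows. Neighbouring H2A and H2B genes can share a window, so these are not separate finds. Of 6 H2B genes with the octamer 4 rose, with changes from -0.09 to 1.05, and of 4 without it 2 rose, from -0.10 to 0.64. A match is a string of letters and does not show that a factor binds. The 150 bases before the start are printed for the H2B and H4 genes with the largest increase and for H1f0, with the motifs in capitals.
H2bc18: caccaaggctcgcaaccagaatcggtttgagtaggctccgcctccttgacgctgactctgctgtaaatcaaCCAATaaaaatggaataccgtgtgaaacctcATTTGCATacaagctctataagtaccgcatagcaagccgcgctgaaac
H4c18: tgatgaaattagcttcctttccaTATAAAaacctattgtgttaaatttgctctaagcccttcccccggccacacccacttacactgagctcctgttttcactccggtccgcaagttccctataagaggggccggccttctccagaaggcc
H1f0: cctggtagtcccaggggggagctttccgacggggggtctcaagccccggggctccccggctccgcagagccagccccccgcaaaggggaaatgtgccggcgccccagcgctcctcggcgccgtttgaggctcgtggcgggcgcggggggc
The windows lie at chr3:96269550-96269699 on the plus strand, chr13:21832198-21832347 on the minus strand and chr15:79028062-79028211 on the plus strand, in that order. H2bc18 holds CCAAT and the octamer, H4c18 holds TATAAA, and H1f0 holds none of the 3 in the stretch shown.

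Genes that act with the replication histones were counted from lists chosen with earlier results of these data known. Each list below is to be read against the 27.8% of all genes that rose and the 21.5% that fell. The median change of all genes was 0.02. Of 36 S phase genes, 33 rose and 1 fell, with a median change of 1.06. Ccne1, the cyclin that starts S phase with CDK2, rose by 1.37 ± 0.17 (SE, n = 4 and 4, limma adjusted p = 0.00099), from 1.81 to 2.23 over the saline arrays to 2.94 to 3.70 over the LPS arrays. Mcm10, a factor of the replication fork, rose by 1.37 ± 0.15 and Gins2, a subunit of the replicative helicase, by 1.31 ± 0.17. Pola2, a subunit of DNA polymerase alpha, fell by 0.48 ± 0.14 on the log2 scale, but its brightest RefSeq probe read 0.76, and without LPS replicate 1 it was -0.44 with an adjusted p of 0.054. The median change of the histone genes, 0.49, was less than that of the S phase genes. The difference between the 2 medians was not tested.

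Of 19 histone chaperones and assembly factors, 14 rose and none fell, with a median change of 0.58. Chaf1b and Chaf1a, subunits of the factor that places new H3 and H4 on replicated DNA, rose by 1.11 ± 0.15 and 1.08 ± 0.14 (SE, n = 4 and 4). Asf1b, which hands H3 and H4 to that factor, rose by 1.10 ± 0.14, from 2.73 to 3.03 over the saline arrays to 3.66 to 4.31 over the LPS arrays (limma adjusted p = 0.0010). Asf1a read -0.03 and did not pass the test.

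Of 15 genes for histone gene transcription and 3′ processing, 10 rose and 1 fell, with a median change of 0.46. Hinfp, which binds H4 promoters, rose by 0.59 ± 0.08 (SE, n = 4 and 4, limma adjusted p = 0.0012). Cstf2, a 3′ processing factor, rose by 0.57 ± 0.12, and Eri1, an exonuclease that trims the histone mRNA end, by 0.57 ± 0.11. Slbp, the stem-loop binder itself, changed by 0.10 ± 0.22 (SE, limma adjusted p = 0.71), and Npat, a coactivator of histone genes, by 0.15 ± 0.07 (adjusted p = 0.097). Lsm1, of the ring that starts decay of histone mRNA, read -0.32 ± 0.09 (adjusted p = 0.021), a call lost without saline replicate 2, 3 or 4 or LPS replicate 1 or 4, at -0.31 to -0.28 with adjusted p of 0.052 to 0.059.

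Replacement histones can be made outside S phase, most of them from mRNAs with poly(A) tails, and of 11 such and variant genes 6 rose and none fell. H2ax, the variant phosphorylated at DNA breaks, rose by 0.93 ± 0.15 (SE, n = 4 and 4, limma adjusted p = 0.0020). Macroh2a1 rose by 0.76 ± 0.12, H2az1 by 0.68 ± 0.11 and H2aj by 0.50 ± 0.10. H1f10 rose by its brighter probe alone. Cenpa, the centromere H3, read 0.44 ± 0.15 with an adjusted p of 0.041. That p was 0.056 to 0.103 without any of the 4 saline arrays or without LPS replicate 1 or 2, with changes of 0.35 to 0.48. The H3.3 genes H3f3a and H3f3b did not pass the test, at 0.19 ± 0.09 and -0.05 ± 0.08. H3f3a passed as higher without LPS replicate 3, at 0.24 (adjusted p = 0.048), and with the slide column as a block (adjusted p = 0.045), but as lower with quantile normalization, at -0.17 (adjusted p = 0.031). H3f3b passed as lower with bright probes, at -0.20 (adjusted p = 0.043), and with quantile normalization, at -0.38 (adjusted p = 0.015). H2az2 and Macroh2a2 did not pass either, at 0.13 ± 0.11 and -0.14 ± 0.06, and Macroh2a2 was lower with bright probes, at -0.29 (adjusted p = 0.0094), and with quantile normalization, at -0.21 (adjusted p = 0.016). Among the genes of the smaller Hist3 and Hist4 loci, H2aw rose by 0.69 ± 0.10, H4f16 by 0.79 ± 0.14 and H3f4 by 0.30 ± 0.08, and H2bu2 read -0.35 ± 0.16 and did not pass the test. Without LPS replicate 3 H2bu2 read -0.49 (adjusted p = 0.012). H3f4 had an adjusted p of 0.051 without LPS replicate 2 or saline replicate 4, at 0.29.

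**Figure D4:**
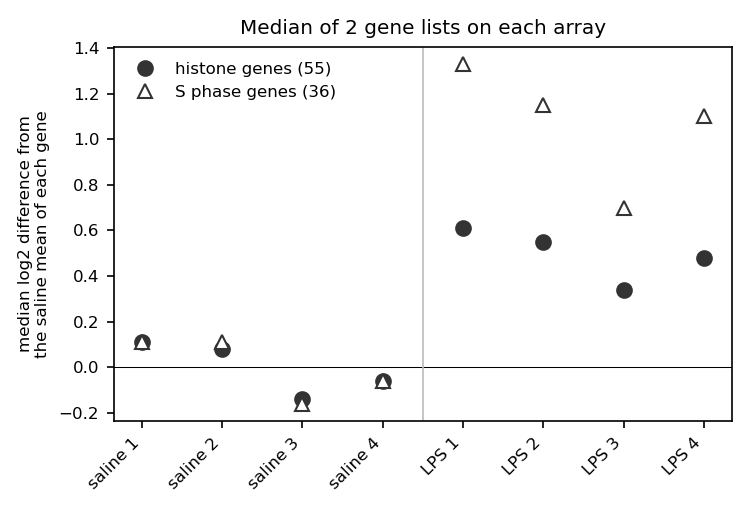
Median over 55 histone genes (circles) and 36 S phase genes (triangles) of the log2 difference from each gene's saline mean, for each of the 8 arrays. The saline arrays lie between -0.16 and 0.11, and LPS replicate 3 is the lowest LPS array for both lists, at 0.34 and 0.70.

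Array by array, the median difference of the histone genes from their saline means was 0.11, 0.08, -0.14 and -0.06 for saline and 0.61, 0.55, 0.34 and 0.48 for LPS. For the S phase genes it was 0.11, 0.11, -0.16 and -0.06, and 1.33, 1.15, 0.70 and 1.10. The median over all probes of the unscaled signal was 15.5 to 21.5 for saline and 11.7 to 17.3 for LPS, and LPS replicate 3 had the highest of the LPS arrays. Without LPS replicate 3 the count of histone probes that fell was 12 rather than 7, and without saline replicate 3 it was 4, while the genes that fell then numbered 2 rather than 4.

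Markers of the cells that a CD11b sort can hold were counted too, against the 27.8% of all genes that rose and 21.5% that fell. Their summed signals are given in units of the array's 75th percentile, on a linear scale. The brightest markers weigh most in such sums, which do not measure shares of cells. Itgam, which encodes CD11b, rose by 0.66 ± 0.10 (SE, n = 4 and 4, limma adjusted p = 0.0018). Of 10 microglia markers 2 rose and 4 fell, with overlapping sums of 1664 to 1988 on saline and 1741 to 2027 on LPS arrays. Those that fell numbered 1 with arrays scaled to their median and 7 with quantile normalization. P2ry12 had the largest change of the 10, at -1.55 ± 0.20 (limma adjusted p = 0.00098). The brightest 2, Csf1r and Cx3cr1, read 0.10 and 0.03 and did not pass the test. Of 6 monocyte markers 5 rose, with sums of 29.9 to 43.3 and 100.2 to 169.6. Of 10 markers of neutrophils and granulocyte precursors 3 rose, a share near that of all genes, with sums of 71.8 to 168.3 and 169.3 to 299.1. S100a9 and S100a8, the brightest of these, rose with Cxcr2, and the other 7 did not pass the test. Of 7 lymphoid markers tested 4 rose and 1 fell, with sums of 1.97 to 3.14 and 3.82 to 4.88. The count of 4 was 2 without saline replicate 2 or 3 or LPS replicate 2 or 4.

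All 6 erythroid precursor markers tested fell, with sums of 21.5 to 37.7 after saline and 10.8 to 14.03 after LPS. Of 7 astrocyte markers 6 fell (14.9 to 18.6, and 7.99 to 10.3), as did 6 of 8 oligodendrocyte markers (9.58 to 9.75, and 5.93 to 7.15) and 4 of 6 endothelial markers (16.9 to 23.4, and 12.3 to 15.6). Of 9 neuronal markers 1 rose and 2 fell, with a median change of -0.60 and overlapping sums of 18.6 to 21.1 and 18.5 to 21.2. Only the share that fell was near that of all genes. Every LPS array lay below every saline array in 4 of the 9 and above in 1, against 18.9% and 25.8% of all genes. The neuronal markers that fell were 4 without saline replicate 1, 5 without LPS replicate 3, and 1 without saline replicate 3 or LPS replicate 1 or 2. The part of a changed mix of cells in the histone values was not tested.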

How the data were processed

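The authors quantified the arrays with Agilent Feature Extraction 12.0.3.1, per the submitters' processing notes. The deposited scanner files hold intensity values, background-subtracted and detrended per the file headers. Per the labels' protocols, 50 ng of total RNA was labelled with Cy3. A second table deposited by the authors holds log2 values, shifted per array and centred on each probe (Pearson's r with scanner values over 0.99 on every array), and served as an alternative. It has column medians of -0.07 to 0.08, runs in the direction of the scanner values, and the steps behind it are not stated in the labels or headers.

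Control and outlier spots were left out and spots of a probe averaged, which left out 6 probes of 56605. Log2 processed signal was set relative to the 75th percentile of its array. A probe was kept when at least 4 of the 8 arrays marked it well above background, and a gene was taken as its probe of highest mean signal. Groups were compared with limma 3.58.1 in R 4.3.3 (lmFit, eBayes), adjusted over all genes or probes. The code was tested on simulated data. All arrays share 1 slide. Their number limits the precision. Names of genes that are not members came from RefSeq accessions (35402 probes), symbols (9123) or the file (12074).

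The members and lists were chosen with earlier results of these data known. Named genes were, per class, up to 3 largest increases and decreases past the test and the gene of highest signal, genes of the Hist3 and Hist4 loci, genes with probes called in opposite directions, all replacement histones, and up to 3 per direction of the other lists. H2bc21, H2bc4, H3c15 and H2bc22 were named after their values were seen. Some other genes, such as H4c1, H4c8, Asf1a, Slbp and Npat, are given outside this rule. The ratio of 2 probes, the RefSeq split and the stem-loop split were added after seeing the data. In all, 21 alternative settings were run.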

Additional observations from a re-analysis of the deposited data

Results flagged for a closer look

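In 108 groups of 4 arrays, those of 54 named genes, 5 had 1 array far from the other 3 by Dixon's criterion, which chance gives in about 1 group of 20. LPS replicate 3 was that array for H2bc21 (2.24), H3c15 (-0.05) and Chaf1a (2.02). Saline replicate 1 was for H1f8 (-3.11) and saline replicate 2 for Macroh2a2 (1.03). In H2bc21 and H3c15 the value of LPS replicate 3 lay above every saline array, and in Chaf1a it was the LPS value nearest to them. H2bc21 and H3c15 were named after their values were seen, so their flags are not independent of that choice. For this reason the count of 5 cannot be set against the share that chance gives.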

How the results depend on the processing

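The 38 histone genes higher after LPS were 35 to 38 over the 21 settings, and the 43 probes 40 to 44 over the 20 that apply to single probes. Scaling moved the median of all genes from 0.02 to 0.24 with array medians and to -0.13 with the 75th percentile of the probes bright on all arrays (bright probes below). The genes called higher and lower were then 31.1% and 11.6%, or 21.5% and 32.2%. Each of these 3 scalings shifts all genes of an array by the same amount. The histone median less that of all genes was therefore bound to be equal under them, at 0.47. With quantile normalization and normexp, where it could differ, it was 0.29 and 0.39.

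The histone median itself was 0.71 with array medians, 0.34 with bright probes, 0.28 with quantile normalization and 0.30 with array signal as a covariate. Genes and probes that fell, 4 and 7, were 2 and 4 with array medians, 8 and 12 with bright probes, 2 and 3 with the covariate, and 2 and 2 when RefSeq probes alone were used, a setting chosen after seeing the data. RefSeq probes that fell were 3 with bright probes, and 1 each with quantile normalization, normexp and the slide row as a block. Of the other probes, 1 rose with bright probes, and 1 rose and 3 fell with the covariate. Leaving out 1 array gave 2 to 6 genes and 4 to 12 probes that fell, 0 to 2 of the RefSeq probes and 3 to 9 of the others.

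In the other lists, processing genes that fell were 0 with array medians, means of probes or the covariate. Replacement histones that fell were 2 with bright probes, 3 with quantile normalization and 1 with RefSeq probes. Chaperones that fell were 2, 2, 1 and 1 with bright probes, quantile normalization, normexp and means of probes. S phase genes that fell were 0 with array medians, means of probes, the covariate and RefSeq probes. Leaving out 1 array gave 0 to 1 in the processing, chaperone and S phase lists.

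Direction reversed with RefSeq probes for H1f10 (-0.61), H1f2 (0.39) and Pola2 (0.76), and with means of probes for H1f3 (-0.12). With quantile normalization it reversed for H3c4 (-0.11), H3f4 (-0.057), H2az2 (-0.22), H3f3a (-0.17) and H1f0 (0.10). With array medians it reversed for H1f0 (0.20), Macroh2a2 (0.079), H3f3b (0.16) and H2bc4 (0.060). With bright probes it reversed for H2az2 (-0.025) and H2bc22 (-0.017), and with the covariate for H1f0 (0.10), H2az2 (-0.073) and H2bc21 (0.20). H1f0 was 0.028 with normexp, and ranged from -0.069 to 0.052 without 1 array. Among probe ratios, leaving out 1 array turned the sign of H2ac18 (range -0.153 to 0.156, but -0.75 and past the test with normexp) and H2bc21 (range -0.026 to 0.045), and other reversals were of H2bc21 (0.0028) and H4c9 (-0.01) with the covariate, and H2ac20 (-0.24) and H4c4 (0.0062) with quantile normalization. The causes were not tested. No paired analysis was possible because the labels give no replicate numbers, but each slide column held 1 array of each group. The slide column as a block, which compares arrays within a column, and the slide row as a block kept the counts of histone genes within 1.5 times. The column block added H3f3a and the probe ratios of H2ac13, H2bc6 and H4c11 to the calls. The row block ended the calls of H1f8 (limma adjusted p = 0.052), Cenpa (0.062) and the probe ratio of H2bc3 (0.053). Leaving out 1 array gave 2 to 4 lymphoid markers higher, 1 to 5 neuronal, 3 to 4 microglial and 3 to 6 endothelial markers lower.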
